A study of Homo sapiens with 8 samples.

Results

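ATF4, a transcription factor of the amino acid and stress response, and 39 genes that are known as its targets or partners were examined in H3122 cells before and after the evolution of resistance to ALK inhibitors. The 40 genes were chosen by symbol, from knowledge of the pathway and with earlier results of these data known, out of the 43869 genes of the deposited table. All 40 had values, and 39 of them were among the 12701 expressed genes, which reached log2 of 25 reads in at least 1 library on the scale explained next. The exception was ALDH1L2, a mitochondrial folate enzyme, at 2.54 in naive cells, 2.89 in erCriz0, 2.62 in erAlec0 and 2.54 in erLor0.

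H3122 is a lung adenocarcinoma cell line that carries the EML4-ALK fusion kinase. The study compared treatment-naive cells with the derivatives erCriz0, erAlec0 and erLor0, which had evolved resistance under rising doses of crizotinib, alectinib or lorlatinib and were kept in their inhibitor, at 0.5 μM for crizotinib and at 2 μM for alectinib and for lorlatinib. For each of the 4 lines the table holds 1 RNA-seq library and 1 ChIP-seq library of H3K27ac, an acetylation mark of active promoters and enhancers. Each resistant line is a single derivative, and cells had been taken off inhibitor before RNA was isolated. The study's methods state no such interval for the ChIP-seq cells, so RNA and H3K27ac may come from different drug states. The other samples of the series (erCriz1, erLor1, a short lorlatinib treatment and pooled input DNA) were not analysed here.

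Values are rlog values, a log2 scale of normalized reads on which differences of features with few reads are drawn toward 0. Changes were taken as rlog differences from naive cells, and genes or peaks that differed by 1 or more in either direction are called past the limit. The study's methods use this limit for RNA, and it was applied to peaks as well. With 1 library per line no difference has a replicate check, so no test or p-value is given and the words higher and lower describe these libraries. All 3 changes of a gene share the naive library. Read depth is unknown, since the deposited values are not counts, and no counting error can be given. Of 8 markers of epithelium and lung adenocarcinoma 7 were expressed, EPCAM at 12.34 to 12.64 and NKX2-1 at 8.67 to 9.18, while NAPSA stayed below the minimum at 3.53 to 4.23. Of 7 markers of other cell types only the collagen gene COL1A1 was expressed, at 9.49 to 10.08, and the leukocyte gene PTPRC was listed at 0 in every library. In bulk RNA, fewer cells of a type and less RNA per cell cannot be told apart.

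Cells that run short of amino acids, or that face misfolded protein, viral RNA or lack of heme, activate kinases that phosphorylate the initiation factor eIF2. General translation then falls, while translation of the ATF4 mRNA rises, because short upstream reading frames in its leader no longer hold ribosomes back. ATF4 protein pairs with C/EBP proteins and binds C/EBP-ATF response elements near genes for amino acid synthesis, amino acid import and tRNA charging, and near regulators such as DDIT3 and TRIB3 that shape the outcome of the stress. Since ATF4 is controlled largely through translation, its mRNA is a poor measure of its activity, and its targets are commonly read in its place.

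Letters of this element were looked for in RefSeq promoter windows of GRCh38.p14, which run from 250 bases before to 50 bases after each start, on both strands. A window existed for 34 of the 40 genes, and several genes had more than 1. The 9 letters TGATGNAAT stood in windows of 2 of the 34 genes (5.88%), MTHFD1L and GARS1, against 1.22% of 27305 genes with a window and 0.730% of 9857 expressed ones. The shorter form TGATGNAA stood in windows of 14 of the 34 (41.2%), against 4.46% of all genes with a window and 2.75% of the expressed ones. By role these were 5 of 8 transporters, 5 of 7 tRNA synthetases, 2 of 8 regulators with a window, 1 of 4 serine and one-carbon enzymes and 1 of 5 other enzymes. A match is a description of letters, and no binding was measured. The genes were chosen as known targets or partners of ATF4, so a share above the background is no independent result. Neither of the 2 secreted and surface proteins had the shorter form. The 8 sequences here show the element at genes of the other roles, with 11 bases on either side. Capitals mark the 8 letters, written TTNCATCA where the element lies on the strand opposite to the gene.
CEBPG, chr19:33374060-33374089, plus strand: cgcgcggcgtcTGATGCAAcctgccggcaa
CHAC1, chr15:40953251-40953280, plus strand: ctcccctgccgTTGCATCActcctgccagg
MTHFD1L, chr6:150866346-150866375, plus strand: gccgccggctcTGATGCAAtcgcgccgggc
ASNS, chr7:97872458-97872487, minus strand: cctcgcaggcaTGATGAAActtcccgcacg
SLC1A4, chr2:64989381-64989410, plus strand: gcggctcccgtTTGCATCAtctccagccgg
SLC1A5, chr19:46784893-46784922, minus strand: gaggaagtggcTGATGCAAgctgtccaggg
GARS1, chr7:30594834-30594863, plus strand: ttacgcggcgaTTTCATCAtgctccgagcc
CARS1, chr11:3057407-3057436, minus strand: cggggcggcggTTGCATCAgattctaggaa

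Each of the 14 genes had its element under 1 H3K27ac peak. That peak was higher by 1.17 in erCriz0 cells, 0.83 in erAlec0 and 1.11 in erLor0 at SLC1A4, an exchanger of small neutral amino acids. At ASNS, which makes asparagine, it was higher by 0.85 in erCriz0 and nearly level in erAlec0 and erLor0, with changes of 0.01 and 0.13. The median RNA change of the 14 genes with the element was 0.14 in erCriz0 cells, 0.12 in erAlec0 and 0.15 in erLor0. For the 20 expressed genes with a window but without the letters it was 0.00, 0.17 and 0.21.

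RNA of most of the genes stayed within the limit of 1 in all 3 lines. In erCriz0, 0 of the 39 expressed genes were up and 0 down, where 2.65% of all expressed genes were up and 1.65% down. In erAlec0, 2 were up (NUPR1 and SLC38A2) and 1 was down (PSAT1), where 2.46% of all expressed genes were up and 2.07% down. In erLor0, 2 were up (NUPR1 and SLC43A1) and 0 down, where 1.10% of all expressed genes were up and 0.740% down. These counts are too small to set the genes apart from the background.

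The median change of the 39 genes was 0.00 in erCriz0 cells, 0.15 in erAlec0 and 0.17 in erLor0, beside −0.02, 0.00 and 0.00 for all expressed genes. In erCriz0 19 of them were higher than in naive cells (48.7%, against 47.9% of all expressed genes). In erAlec0 26 were higher (66.7%, against 50.3%), and in erLor0 31 were higher (79.5%, against 49.4%). None of the 39 had its lowest value in erLor0, whereas 17.8% of all expressed genes did. Their highest value lay in erLor0 for 14 (35.9%, against 17.4% of all expressed genes), in erAlec0 for 11 (28.2%, against 27%), in erCriz0 for 9 (23.1%, against 31.2%) and in naive cells for 5 (12.8%, against 24.5%). The lowest value lay in erCriz0 for 16 (41.0%, against 33.0%), in naive cells for 15 (38.5%, against 22.5%) and in erAlec0 for 8 (20.5%, against 26.7%).

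**Figure D1:**
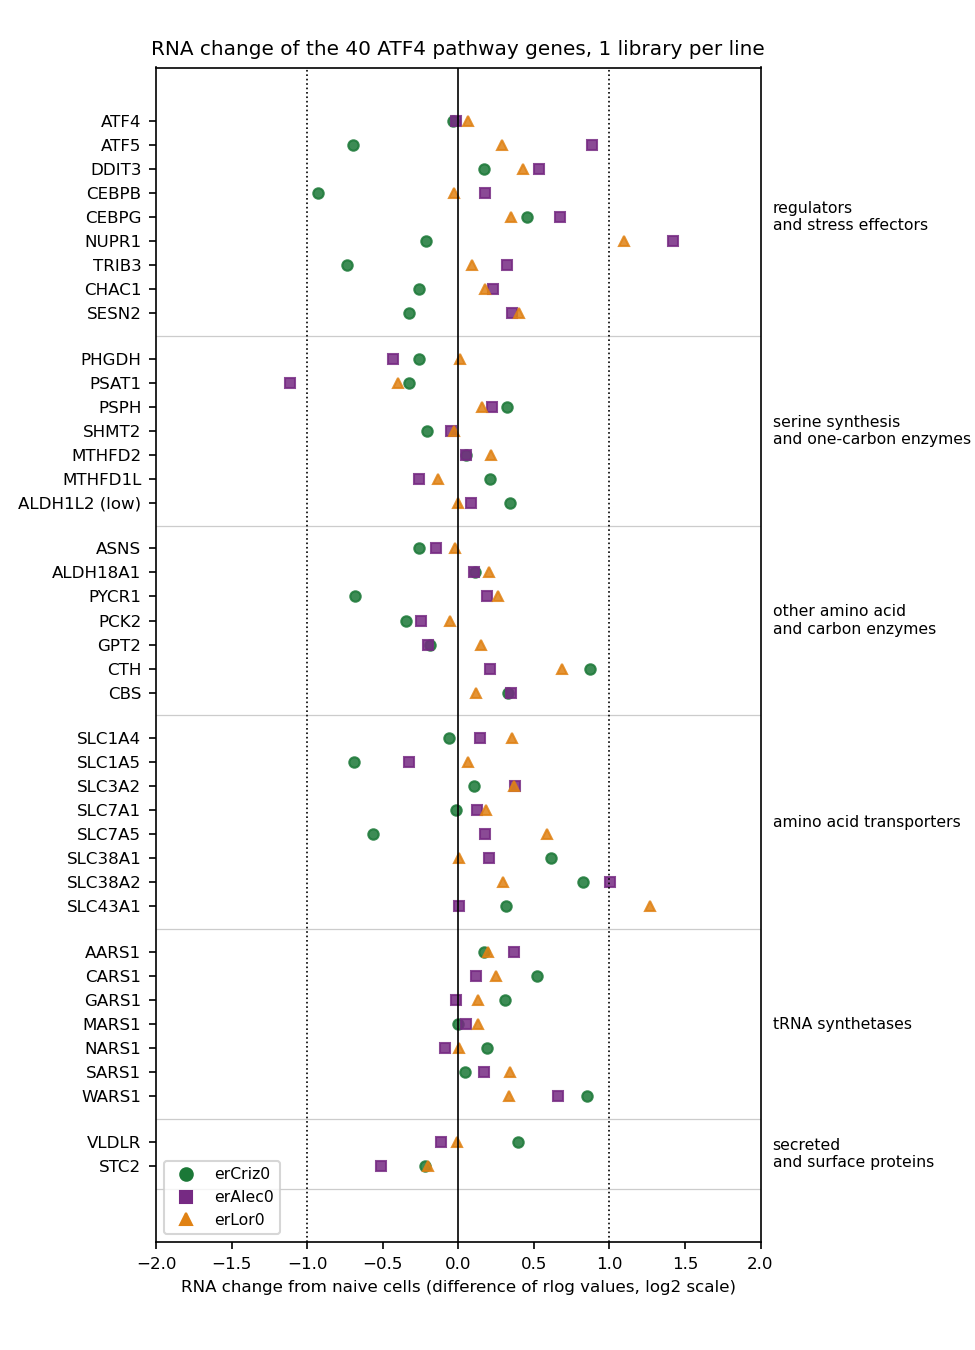
RNA change of the 40 genes from naive cells, as a difference of rlog values on a log2 scale (horizontal axis), with genes grouped by role and 1 symbol per resistant line, each from 1 library. Dotted lines mark the limit of 1, which NUPR1, PSAT1, SLC38A2 and SLC43A1 pass; ALDH1L2, marked low, was not expressed.

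Among the 9 regulators and stress effectors, 7 had their lowest value in erCriz0, as did 33.0% of all expressed genes, and 7 their highest in erAlec0, as did 27%. Their median change was −0.26 in erCriz0 cells, 0.35 in erAlec0 and 0.29 in erLor0.

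ATF4 itself (ENSG00000128272.14, chr22:39519695-39522685 of hg38, plus strand) was level. Its RNA stood at 12.81 in naive cells, 12.77 in erCriz0, 12.79 in erAlec0 and 12.87 in erLor0, the smallest range in its group. It was also among the most abundant of the genes, with a naive level per kb of exon of 11.42 on the log2 scale, behind SLC7A5 at 11.76. Near copies of ATF4 elsewhere in the genome can take some of its reads.

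NUPR1, a small stress-induced chromatin protein, had the largest change of all 40 genes. Its RNA was 4.59 in naive cells, 4.38 in erCriz0, 6.02 in erAlec0 and 5.69 in erLor0. The changes of −0.21, 1.42 and 1.10 amount to 0.863, 2.68 and 2.14 times the naive value, so erAlec0 and erLor0 were high and erCriz0 was close to naive cells. It lay below the minimum of 4.64 in naive cells and erCriz0 and counts as expressed only through erAlec0 and erLor0, the lines where it was high, so its calls are no independent result. Without it 1 gene was up in erAlec0 and 1 in erLor0. Across the gene's other neighbours within 5 Mb the median RNA change was −0.26, −0.03 and 0.05.

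ATF5, a relative of ATF4 that responds to mitochondrial stress, was 8.26 in naive cells, 7.56 in erCriz0, 9.15 in erAlec0 and 8.55 in erLor0. Its change was −0.70 in erCriz0 and 0.88 in erAlec0, on opposite sides of naive cells, and 0.29 in erLor0. NUP62, which overlaps ATF5 on the opposite strand over 1063 bases, was 9.58, 9.16, 9.21 and 9.36 in the same libraries, and the study's methods name a check of strand with RSeQC but not the strand setting of the counting.

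CEBPB, a C/EBP protein that can pair with ATF4, was 9.91 in naive cells, 8.98 in erCriz0, 10.09 in erAlec0 and 9.88 in erLor0. Only erCriz0 stood apart, with a change of −0.93, or 0.524 times the naive value. The median change of other expressed genes within 5 Mb was −0.30 in that line. CEBPG, a related partner, was higher in all 3 lines, with changes of 0.46, 0.67 and 0.35.

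TRIB3, a pseudokinase that damps ATF4 activity as a feedback, was likewise lowest in erCriz0 and highest in erAlec0, with 10.66 in naive cells, 9.92 in erCriz0, 10.99 in erAlec0 and 10.75 in erLor0. Its change in erCriz0 was −0.74, where its neighbours within 5 Mb had a median of −0.39. CHAC1, an enzyme that degrades glutathione, was 9.88, 9.62, 10.11 and 10.05, again lowest in erCriz0. SESN2, which restrains mTORC1 when leucine is short, had changes of −0.33, 0.35 and 0.40.

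DDIT3, which encodes the pro-apoptotic factor CHOP, was higher in all 3 lines. Its RNA was 7.99 in naive cells, 8.16 in erCriz0, 8.52 in erAlec0 and 8.42 in erLor0. DDIT3 overlaps MARS1 over 982 bases and MBD6 over 1028 bases on the opposite strand. MBD6 was 11.41, 10.71, 11.76 and 11.68 in these libraries, also highest in erAlec0, and its part in the DDIT3 values was not tested.

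**Figure D2:**
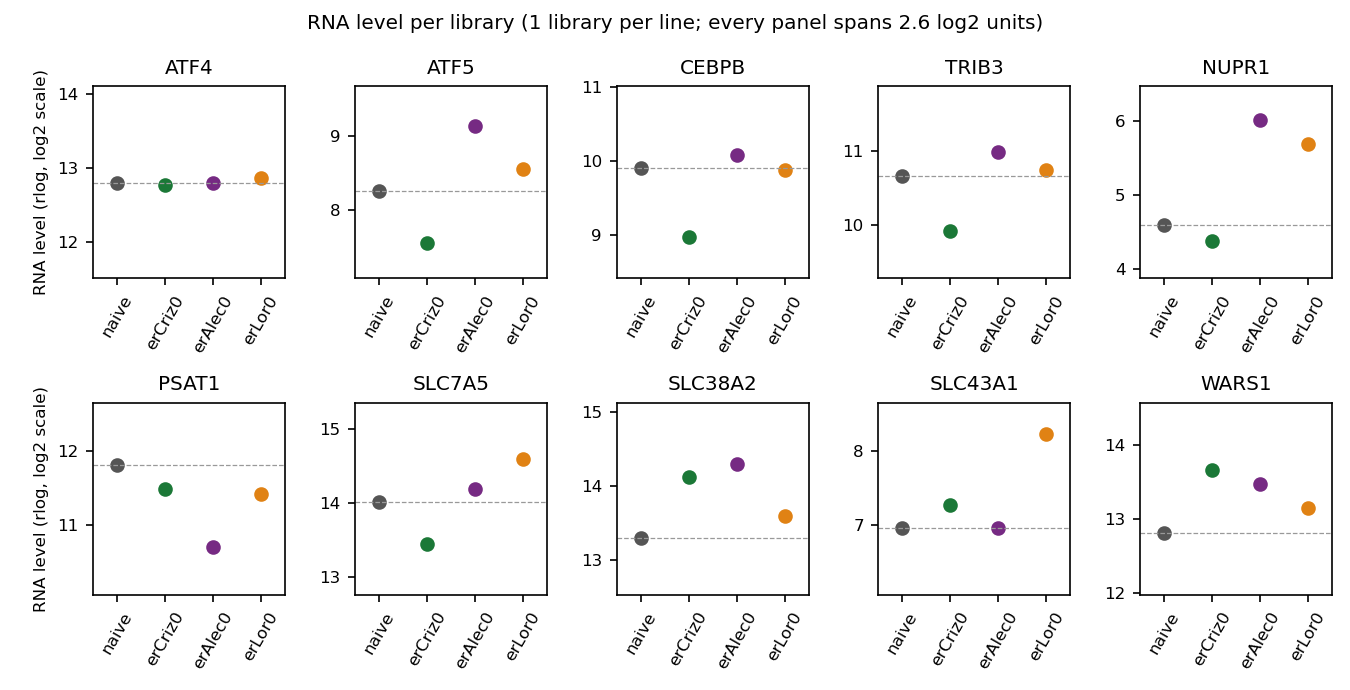
RNA level (rlog, log2 scale) of 10 of the genes in naive, erCriz0, erAlec0 and erLor0 cells, 1 point per library, with every panel spanning the same range and a dashed line at the naive value. ATF4 is level, ATF5, CEBPB and TRIB3 are lowest in erCriz0, and NUPR1 is high in erAlec0 and erLor0.

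Compared with each other rather than with naive cells, erAlec0 and erCriz0 differed most at the regulators. In erAlec0, 4 of the 39 genes were at least 1 above erCriz0, and all 4 were regulators: NUPR1 by 1.64, ATF5 by 1.58, CEBPB by 1.11 and TRIB3 by 1.06. NUPR1 passed the filter only through its high lines, and 3 genes remain without it. Of all expressed genes, 3.22% differed so. As described above, the genes around CEBPB and TRIB3 also had medians below naive cells in erCriz0, and ATF5 overlaps NUP62. None of the 39 lay at least 1 below erCriz0, where 2.68% of all expressed genes did. In erLor0, NUPR1 and the transporter SLC7A5 were at least 1 above erCriz0, by 1.31 and 1.15, and 0 lay at least 1 below it, where 2.64% and 2.73% of all expressed genes did. Between erLor0 and erAlec0 only SLC43A1 differed by at least 1, with a higher value in erLor0. Of all expressed genes 0.575% were at least 1 higher and 0.653% at least 1 lower in erLor0 than in erAlec0.

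The enzymes that make serine and load its carbon onto folate showed the only change past the limit in the downward direction. PSAT1, the transaminase of serine synthesis, was 11.81 in naive cells, 11.49 in erCriz0, 10.70 in erAlec0 and 11.41 in erLor0. All resistant lines were below naive cells and erAlec0 was lowest, with a change of −1.11, or 0.462 times the naive value. The median of 17 other expressed genes within 5 Mb was −0.34 in erAlec0, and less that median the change was −0.78.

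PHGDH, which opens the serine pathway, was 10.45 in naive cells, 10.19 in erCriz0, 10.02 in erAlec0 and 10.46 in erLor0. PSPH, which completes it, was 0.32, 0.22 and 0.16 higher in erCriz0, erAlec0 and erLor0, although near copies of PSPH make the assignment of its reads uncertain. The 3 genes of the pathway thus had no shared direction in any line.

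Among the folate enzymes, SHMT2, which passes the serine carbon to folate in mitochondria, was 11.75 in naive cells, 11.55 in erCriz0, 11.71 in erAlec0 and 11.72 in erLor0, the smallest range of the group. MTHFD2, the next mitochondrial enzyme, had changes of 0.05, 0.05 and 0.21. MTHFD1L, which releases formate, had changes of 0.21, −0.26 and −0.13.

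Changes of the other enzymes were within the limit in all lines. CTH, which makes cysteine from cystathionine, was 8.01 in naive cells, 8.88 in erCriz0, 8.22 in erAlec0 and 8.70 in erLor0, so erCriz0 and erLor0 were the higher libraries. CBS, the enzyme before it, had changes of 0.33, 0.35 and 0.12. A near copy of CBS makes its reads uncertain, and the peak over the start of its canonical transcript was listed at 0 in every library. PYCR1, the last enzyme of proline synthesis, was 10.60, 9.92, 10.79 and 10.86, lowest in erCriz0. ALDH18A1, which starts proline synthesis, did not follow PYCR1, with changes of 0.11, 0.11 and 0.20.

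ASNS, the classical ATF4 target, was nearly level at 7.67 in naive cells, 7.41 in erCriz0, 7.52 in erAlec0 and 7.65 in erLor0. PCK2, the mitochondrial PEP carboxykinase, had changes of −0.34, −0.24 and −0.05. GPT2, an alanine transaminase, was 8.47 in naive cells, 8.29 in erCriz0, 8.28 in erAlec0 and 8.63 in erLor0, that is changes of −0.18, −0.20 and 0.15.

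Each of the 8 amino acid transporters was higher in erLor0 than in naive cells, as were 49.4% of all expressed genes. Their median change was 0.32 and the smallest 0.01. In erLor0 5 had their highest value, as did 17.4% of all expressed genes. SLC43A1, a facilitator of branched-chain amino acid transport also called LAT3, was 6.95 in naive cells, 7.27 in erCriz0, 6.96 in erAlec0 and 8.23 in erLor0. Only erLor0 was high, with a change of 1.27 or 2.42 times the naive value. SLC7A5, the light chain of the leucine exchanger LAT1, was 14.01, 13.45, 14.19 and 14.60 in the same order. Its change was −0.56 in erCriz0 and 0.58 in erLor0, on opposite sides of naive cells, while its heavy chain SLC3A2 had changes of 0.10, 0.38 and 0.37.

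The glutamine transporter SLC38A2, also called SNAT2, was 13.30 in naive cells, 14.12 in erCriz0, 14.30 in erAlec0 and 13.59 in erLor0. The erAlec0 change of 1.00 lies at the limit, and neighbours of the gene within 5 Mb had a median of 0.30 there. SLC38A1, next to it on chromosome 12, had changes of 0.62, 0.21 and 0.01. For SLC1A5, another glutamine importer, values were 12.23, 11.55, 11.91 and 12.30, with erCriz0 lowest. SLC7A1, an arginine and lysine importer, had the smallest range, from 12.74 in erCriz0 to 12.94 in erLor0. ATF5, SLC7A5 and SLC1A5 were described in full after their values had been seen.

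All 7 tRNA synthetases stayed within the limit. Each was higher than in naive cells in erLor0, as were 6 in erCriz0 and 5 in erAlec0, with medians of 0.20, 0.19 and 0.12. Of all expressed genes 49.4%, 47.9% and 50.3% were higher in the same order. The smallest of these changes in erLor0 was 0.01, so a higher value is not always a sizeable one. WARS1, which charges tryptophan tRNA and is also induced by interferon, was 12.81 in naive cells, 13.66 in erCriz0, 13.47 in erAlec0 and 13.15 in erLor0. CARS1, for cysteine, was 10.79, 11.31, 10.91 and 11.05. MARS1, for methionine, was the most level at 11.84, 11.84, 11.89 and 11.97. The changes of AARS1, GARS1, NARS1 and SARS1 ranged from −0.09 for NARS1 to 0.37 for AARS1, both in erAlec0.

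STC2, a secreted glycoprotein, was 11.93 in naive cells, 11.71 in erCriz0, 11.42 in erAlec0 and 11.73 in erLor0. VLDLR, a lipoprotein receptor, was 7.20, 7.59, 7.08 and 7.19.

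H3K27ac at the gene starts was described next. A start peak covers or lies within 1 kb of the 5′ end of the gene, and the 39 expressed genes had 43 of them at 36 genes. NUPR1, PYCR1 and CBS had none by this definition, and the peak nearest to NUPR1 lay 3562 bases from its start. The canonical start of PYCR1, 5112 bases from its 5′ end, lay under a peak with changes of 0.16, 0.35 and 0.68. In erCriz0, 3 of the 43 were up and 0 down, where 4.63% of the start peaks of all expressed genes were up and 0.680% down. In erAlec0, 0 were up and 0 down, where 7.47% and 1.62% were. In erLor0, 3 were up and 0 down, where 8.57% and 0.925% were. Their median change was 0.40, 0.08 and 0.32 in the 3 lines, beside 0.34, 0.26 and 0.41 for all 12651 start peaks of expressed genes.

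VLDLR and SLC1A4 had start peaks past the limit in both erCriz0 and erLor0. The VLDLR peak was 5.92 in naive cells, 7.47 in erCriz0, 6.71 in erAlec0 and 6.97 in erLor0, while the RNA of the gene changed by 0.39, −0.12 and −0.01. For the SLC1A4 peak that holds the element shown above, values were 8.01, 9.18, 8.84 and 9.13, with RNA changes of −0.06, 0.15 and 0.35. SESN2 was past the limit in erCriz0, with a peak of 6.18 in naive cells, 7.23 in erCriz0, 6.56 in erAlec0 and 7.07 in erLor0, while its RNA was lowest in erCriz0. All of these peaks were higher in each resistant line than in naive cells. Of all start peaks of expressed genes, 82.0% were higher in erCriz0, 71.3% in erAlec0 and 83.3% in erLor0.

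Across the 36 genes with a start peak, the change of the peak and of the RNA had a Pearson r of 0.40 in erCriz0 cells, 0.17 in erAlec0 and 0.22 in erLor0, with Spearman rho of 0.27, 0.23 and 0.31. These are descriptions across genes that share libraries, and genes are not independent replicates. Whether the ChIP-seq cells were off inhibitor, as the RNA-seq cells were, is not stated. At PHGDH, SLC3A2, TRIB3 and MARS1 the canonical transcript starts 63523, 24794, 17925 and 12623 bases from the 5′ end of the gene. Their start peak is therefore not the peak at the canonical start, and no correlation with peaks at canonical starts is given. At ATF4 the start peak, which is broad and covers the whole gene, had changes of 0.36, −0.15 and 0.01. CEBPB had −0.33, −0.15 and −0.06, the same direction as its RNA in erCriz0. CTH and CEBPG were higher in both measures in all 3 lines, with start peak changes of 0.81, 0.74 and 0.90 at CTH and of 0.58, 0.50 and 0.49 at CEBPG.

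**Figure D3:**
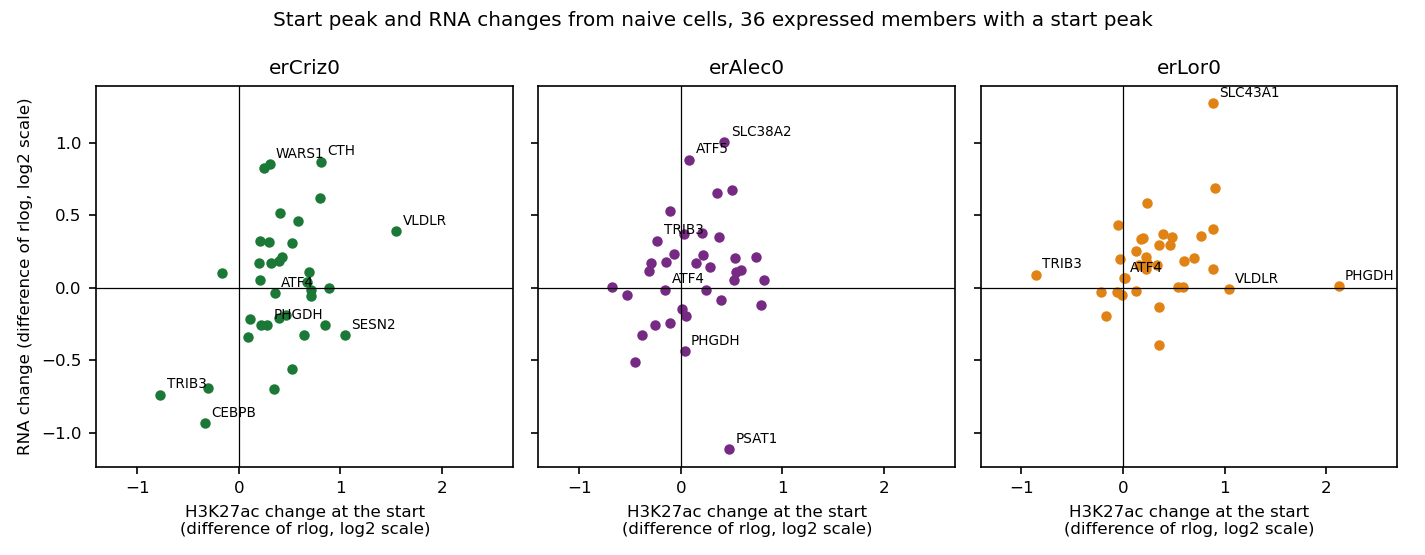
Change of the start peak (horizontal axis) and of RNA (vertical axis) from naive cells, both as differences of rlog values on a log2 scale, for the 36 expressed genes with a start peak in erCriz0, erAlec0 and erLor0. Points spread widely in every panel, with PHGDH at a start peak change of 2.12 and an RNA change of 0.01 in erLor0. That peak also covers the start of the gene ZNF697, and the peak at the canonical PHGDH start changed by 0.88.

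PSAT1 and its peaks moved in opposite directions in erAlec0. Its start peak was 8.58 in naive cells, 9.22 in erCriz0, 9.06 in erAlec0 and 8.93 in erLor0, higher in each resistant line although the RNA was lower in each. Its changes were 0.64, 0.48 and 0.35, beside medians of 0.34, 0.26 and 0.41 for all start peaks of expressed genes. A peak inside the gene (chr9:78311126-78313429) was 5.99, 5.08, 7.28 and 6.01, so erAlec0 was high by 1.29 and erCriz0 low with a change of −0.91. The other peaks within the gene had changes of 1.14 and 0.96 in erAlec0, the line with the lowest PSAT1 RNA.

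SLC43A1 showed the same direction in both measures in erLor0. Its start peak was 5.72 in naive cells, 6.01 in erCriz0, 5.04 in erAlec0 and 6.60 in erLor0, highest in the line with the highest RNA. Of its 14 peaks, those at chr11:57482007-57483173 and chr11:57500775-57503016 were past the limit in erLor0, with changes of 1.16 and 1.12.

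Over all 441 peaks paired with the 40 genes, at most 20 kb from a gene, the median change was −0.20 in erCriz0 cells, −0.35 in erAlec0 and −0.16 in erLor0, beside 0.00 for all 126470 peaks in each line. In erCriz0, 7 were up and 36 down, where 7.00% of all peaks were up and 5.94% down. In erAlec0, 18 were up and 78 down, where 14.1% and 9.41% were. In erLor0, 32 were up and 63 down, where 7.45% and 8.82% were. A peak paired with several genes counts once, and peaks of 1 gene are not independent.

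The lower peaks lay mostly at MTHFD1L, TRIB3 and STC2. These genes, singled out after their values had been seen, held 102 of the 441 peaks and 63 of the 78 that were down in erAlec0, 46 of the 63 in erLor0 and 21 of the 36 in erCriz0. Of the 339 peaks of the other genes, 4.42% were down in erCriz0, 4.42% in erAlec0 and 5.01% in erLor0.

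At MTHFD1L 33 of 56 peaks were down in erAlec0 and 31 in erLor0, with medians of −1.20 and −1.16, while its RNA changed by −0.26 and −0.13. Other peaks within 5 Mb had medians of −0.36 and −0.51, and other expressed genes a median of −0.28 in both lines. Most of the MTHFD1L peaks that were down lay far from the start of the gene, and many were paired with other genes as well. The peak over that start changed by 0.08 in erAlec0 and 0.32 in erLor0, and a smaller one within 1 kb of it by −0.60 and 0.39. TRIB3 had 25 peaks, with medians of −0.76, −1.08 and −0.99, and 8, 16 and 11 of them down. In erAlec0 these lower peaks stood beside a TRIB3 RNA change of 0.32. The peak at the 5′ end of TRIB3, which is over 19 kb long, was 11.72 in naive cells, 10.95 in erCriz0, 11.49 in erAlec0 and 10.87 in erLor0. Next to it, the peak over the start of the canonical transcript had changes of −0.18, −0.22 and −0.51. STC2 had 21 peaks with medians of −0.85, −1.15 and −0.72, and 14 were down in erAlec0, the line with its lowest RNA.

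**Figure D4:**
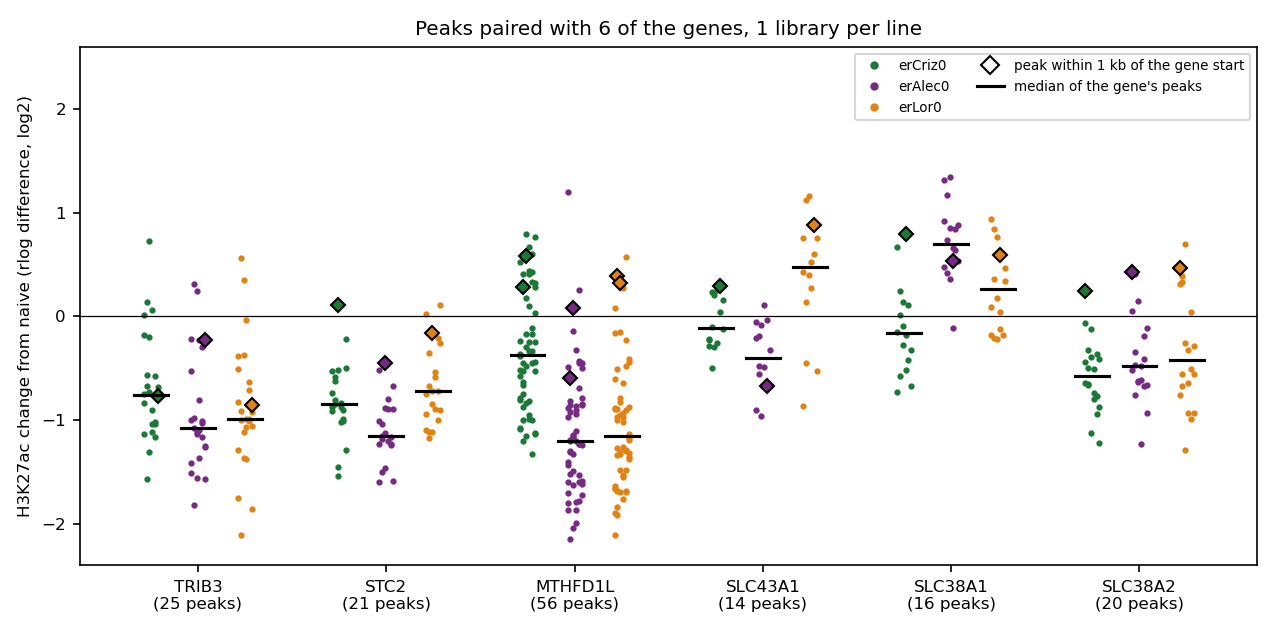
H3K27ac change from naive cells (rlog difference, log2 scale) of every peak paired with TRIB3, STC2, MTHFD1L, SLC43A1, SLC38A1 and SLC38A2 in the 3 resistant lines, with start peaks as diamonds and the median of each gene as a bar. Most peaks of MTHFD1L lie below 0 in erAlec0 and erLor0, with medians of −1.20 and −1.16, while its start peaks lie higher.

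PHGDH lies in a stretch of chromosome 1 where H3K27ac and RNA were both higher in erLor0. Of 809 other peaks within 5 Mb of its 5′ end 588 were up in erLor0, against 32 in erAlec0 and 18 in erCriz0, and the median change in erLor0 was 1.38. Of 37 other expressed genes 23 were up in erLor0, with a median of 1.24. Whether extra copies of the stretch raised these values was not tested.

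PHGDH RNA did not share the rise of its surroundings. Its change of 0.01 in erLor0 was below that of 36 of the 37 other genes, and less their median it was −1.23. That difference was −0.93 against genes within 2 Mb and −0.67 within 10 Mb, short of the limit. The wider window takes in genes 6 to 10 Mb upstream, where the erLor0 median of each 1 Mb step was at most 0.15. Genes 1 to 2 Mb downstream, which weigh more in the narrower window, had a median of 0.61. The H3K27ac peaks of PHGDH did share the rise over most of the gene, since 22 of 27 were up in erLor0 with a median of 1.53. At the 5′ end of the gene (chr1:119647164-119650116) the peak was 7.21 in naive cells, 7.49 in erCriz0, 7.25 in erAlec0 and 9.33 in erLor0.

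The canonical PHGDH transcript starts 63523 bases downstream of the 5′ end of the gene. The peak at the canonical start (chr1:119711948-119712605) was 4.80 in naive cells, 5.72 in erCriz0, 5.89 in erAlec0 and 5.68 in erLor0. This peak was thus higher in all lines, by 0.92, 1.09 and 0.88. Less the median of the surrounding peaks its erLor0 change was −0.50, whereas that of the peak at the 5′ end was 0.74. The adjacent peak (chr1:119713143-119713517) had the smallest change of the 27 in erLor0, 0.56. The peak at the canonical start and PHGDH RNA were both below their surroundings in erLor0.

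**Figure D5:**
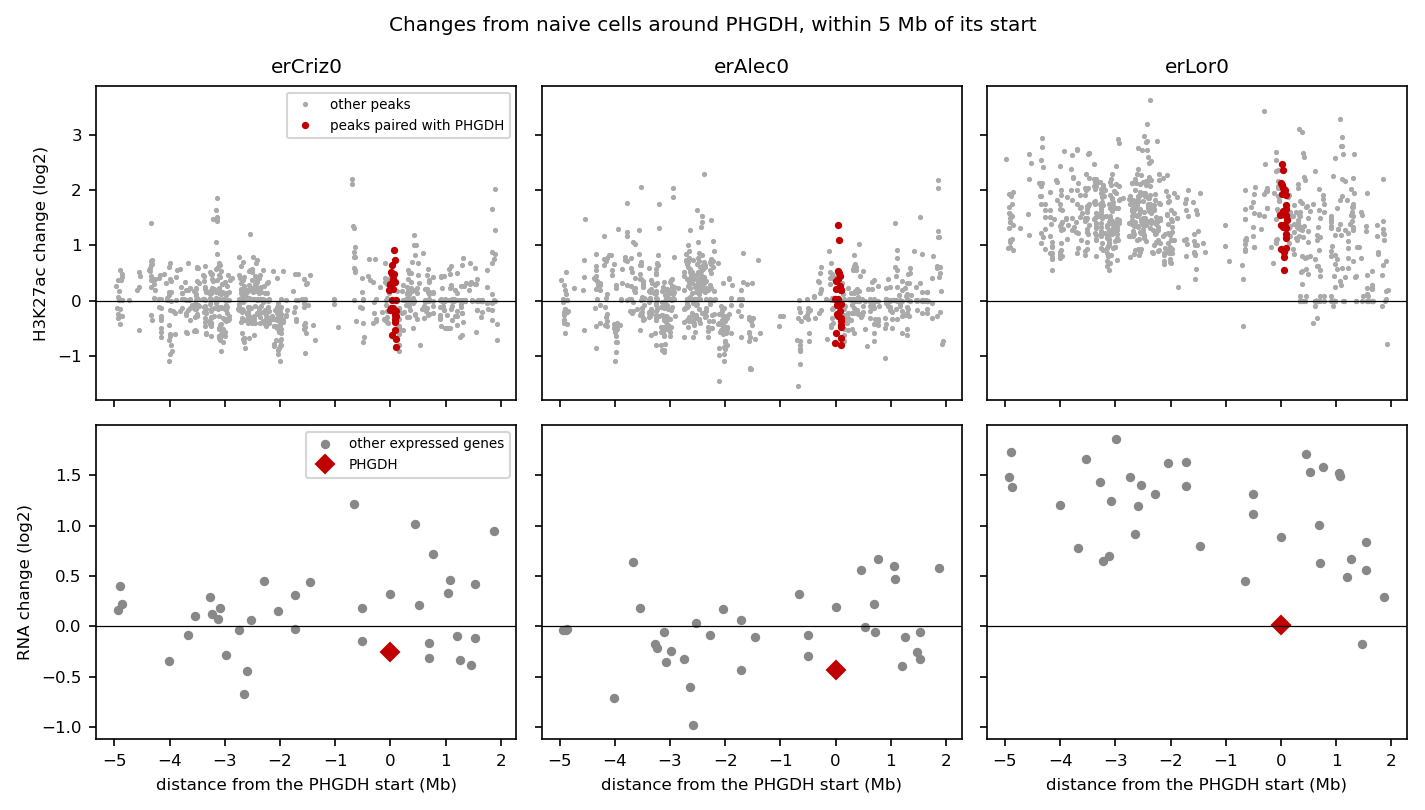
Changes from naive cells of H3K27ac peaks (upper panels) and RNA of expressed genes (lower panels), as rlog differences on a log2 scale, against the distance from the 5′ end of PHGDH in Mb, for the 3 resistant lines. In erLor0 most peaks and genes lie well above 0, with PHGDH RNA at 0.01.

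Genes around the pathway were read from lists of 6 kinds. As a background, the erCriz0 library had 2.65% of all expressed genes past the limit upward and 1.65% downward. For erAlec0 these shares were 2.46% and 2.07%, and for erLor0 they were 1.10% and 0.740%. The counts past the limit given below are too small to set a list apart from these shares. Among 14 eIF2 kinases and subunits of eIF2 and eIF2B, all expressed, 0 passed the limit in any line. The heme-regulated kinase EIF2AK1 had changes of −0.11, −0.14 and 0.05. The RNA-sensing kinase EIF2AK2, or PKR, had 0.39, −0.16 and −0.01. For EIF2AK3, or PERK, of the endoplasmic reticulum they were 0.32, 0.14 and 0.21, and for the amino acid sensor EIF2AK4, or GCN2, 0.18, 0.16 and 0.43.

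Of 15 further outputs of ATF4, 1 passed the limit, the cystine importer SLC7A11 with a change of 1.18 in erCriz0. Its RNA was 13.24 in naive cells, 14.43 in erCriz0, 13.73 in erAlec0 and 13.52 in erLor0. The list had medians of −0.13 in erCriz0 cells, 0.12 in erAlec0 and 0.19 in erLor0, with 5, 12 and 11 genes higher than in naive cells. Of all expressed genes 47.9%, 50.3% and 49.4% were higher. Of 18 genes of the ATF6 and XBP1 arms, which raise chaperones of the endoplasmic reticulum, 1 passed the limit. ERN1, the sensor that splices XBP1 mRNA, was 10.22, 10.00, 11.25 and 10.74, with a change of 1.03 in erAlec0.

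The 13 cytosolic tRNA synthetases outside the 40 genes were all within the limit, with medians of 0.10, −0.14 and 0.03. Among the isoenzymes and related enzymes, TYMS, which makes thymidylate with a folate carbon and is also known as a gene of dividing cells, was 9.25 in naive cells, 8.35 in erCriz0, 7.80 in erAlec0 and 8.43 in erLor0. Its change of −1.44 in erAlec0 passed the limit.

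Among 11 other expressed amino acid transporters, SLC7A2 and SLC43A2 passed the limit. SLC7A2, an importer of arginine and lysine, was 5.74 in naive cells, 7.13 in erCriz0, 7.48 in erAlec0 and 6.58 in erLor0, higher in each resistant line. SLC43A2, or LAT4, was 6.21, 4.98, 6.23 and 5.42, with a change of −1.23 in erCriz0. The median of the 11 was −0.22 in erLor0 with 3 genes higher, where all 8 transporters among the 40 genes were higher. Of all expressed genes 49.4% were higher in that line.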

How the data were processed

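RNA-seq and H3K27ac ChIP-seq of naive, erCriz0, erAlec0 and erLor0 cells were used, each from a single library of its kind. The authors deposited 1 table of 295240 pairs of peaks and genes (20 kb apart at most), with log2 values (rlog, computed by the authors with DESeq2). RNA reads were aligned to hg38 with HISAT2 and counted with HTSeq-count. ChIP reads were aligned with BWA, freed of duplicates and of low mapping quality, called with MACS2, merged over samples, filtered for blacklisted regions and counted with featureCounts. Versions, the strand setting of counting and a subtraction of input are not given in the sources used here, so a gain in copy number would raise the peaks of a region. The authors' means and correlations with p-values were not used, and 0 value columns were unmapped.

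Genes were matched by identifier to GENCODE release 44, where the 34115 genes that shared the identifier version were placed identically. File coordinates were converted to 1-based positions. Expressed genes had at least log2 of 25, which is 4.64, in 1 library or more. Regional values are medians of other expressed genes, or of peaks not paired with the gene, within 5 Mb. Near copies and overlapping genes are named where they bear on a gene. The genes described in full are those past a change of 1, the 2 with the largest and the 1 with the smallest change in each role group, and ATF4, DDIT3, TRIB3, CHAC1, ASNS, PHGDH and PSAT1. Of the other lists, genes past 1 and the eIF2 kinases are named, apart from 1 gene that is not reported here. The 40 genes and all lists were chosen with earlier results of these data known. Differences were computed with no test, as no line has replicates. Alternatives were other limits, centring, quantile normalization, other filters, regional correction, other windows and start definitions. Scripts were tested on simulated data, with Python 3.11.15, numpy 2.4.6, pandas 2.3.3 and matplotlib 3.10.9.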

Additional observations from a re-analysis of the deposited data

Results flagged for a closer look

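ATF5 and SLC7A5 stood on opposite sides of naive cells in 2 lines by at least 0.5 each. ATF5 RNA was 1.58 higher in erAlec0 than in erCriz0, with changes of 0.88 and −0.70 from naive cells. SLC7A5 RNA was 1.15 higher in erLor0 than in erCriz0, with changes of 0.58 and −0.56. With 1 library per line neither difference was tested.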

How the results depend on the processing

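Of 113 values computed under other settings and as reported, 12 were added after the data had been seen, and no change past the limit changed sign. With a limit of 1.5-fold, erCriz0 had 4 genes up and 5 down, where 7.56% and 8.52% of all expressed genes were, and erAlec0 had 5 up, where 7.94% were. With a limit of 2, 0 were up in erAlec0, 0 up in erLor0 and 0 down in erAlec0. Of all expressed genes 0.181%, 0.0551% and 0.157% passed that limit in the same order, so these counts say little about the genes. Quantile normalization left 1 gene up in erAlec0, with SLC38A2 at 0.86. After the regional median was taken off, 1 was up in erCriz0 (WARS1 at 1.08), and 1 up (NUPR1 at 1.45) and 0 down in erAlec0. There SLC38A2 at 0.71 and PSAT1 at −0.78 no longer passed the limit. In erLor0, 2 were up (NUPR1 at 1.05 and SLC43A1 at 1.21) and 1 was down (PHGDH). The share of all expressed genes past the limit after this step is not given, so these counts cannot be set against a background. PHGDH RNA in erLor0 less its region was −0.93 with a window of 2 Mb and −0.67 with 10 Mb, which takes in genes beyond the raised stretch. The PHGDH peak at the 5′ end less the region was 1.01 with 2 Mb, and the peak at the canonical start gave −0.50. The 8-letter motif was found at 14 genes in place of 2. Under quantile normalization the RNA medians of erCriz0, erAlec0 and erLor0 were −0.08, 0.06 and 0.15, and those of start peaks were 0.26, −0.06 and 0.14, so the erAlec0 start peak median turned below 0. Across the other settings the RNA medians of these lines lay between 0.00 and 0.05, between 0.09 and 0.18, and between 0.17 and 0.20. With centring 13 genes were lowest in erCriz0, in place of 16. No paired analysis was possible because each line has 1 library and no result comes from a test. Leaving out a replicate could not be done for the same reason. Unknown depth limits the changes of genes with few reads, such as NUPR1.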
